A study of Mus musculus with 8 samples.

Results

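The proteasome genes are defined here by name. They are the genes of the array annotation whose single symbol starts with Psma, Psmb, Psmc, Psmd, Psme, Psmf or Psmg followed by a digit, which gave 50 of the 19938 genes measured. Of these, 48 encode subunits, activators, an inhibitor or assembly factors, and the other two, Psmc3ip and Psme3ip1, encode proteins that only bind such a factor. Where a gene had several probe sets, the one with the highest mean over all arrays was read. Neither rule reads a difference between groups, but this set of genes was itself picked with results of these data known.

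RNA came from cultured macrophages of C57BL/6J mice, drawn by thioglycollate into the peritoneal cavity and harvested 5 days after its injection. The 4 unloaded arrays are of cells cultured without acetylated low-density lipoprotein (acLDL), a modified lipoprotein that macrophages take up and that fills them with cholesterol. The 4 acLDL arrays are of cells cultured with it, for 3 days at 20 µg/mL by the sample labels or 2 days at 50 µg/mL by the series text, so dose and time are not settled. The series text calls the 4 replicates of each condition biologically independent, and the sources used here do not state the number, age or sex of the mice. The p-values measure the spread between these arrays.

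The proteasome degrades proteins that carry ubiquitin chains. Its core particle is a barrel of 2 outer rings of alpha subunits (Psma genes), which gate the entrance, and 2 inner rings of beta subunits (Psmb genes), some of which cut peptide bonds. A regulatory particle caps the barrel: its base holds the ATPases (Psmc genes) that unfold substrates, and its lid (most Psmd genes) removes ubiquitin. In immune cells and under interferon, the catalytic subunits Psmb5, Psmb6 and Psmb7 can be replaced by Psmb8, Psmb9 and Psmb10, and the activator of Psme1 and Psme2 can cap the core. This immunoproteasome makes peptides that suit MHC class I molecules, and macrophages carry both forms.

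Promoter sequence is shown first for the neighbours Psmb8 and Psmb9, because one of these inducible subunit genes passed the test and the other did not. Windows run from 250 bases before to 50 after the gene start of RefSeq (build GRCm38.p6), 5′ to 3′ on the gene's own strand, and the start used in these cells may be another. In RefSeq order Psmb9, Tap1, Psmb8 and Tap2 follow each other on chromosome 17, and 275 of the 300 bases of the Psmb9 window lie in the Tap1 window on the opposite strand. Capitals mark a CCAAT box, which reads ATTGG on this strand. The Psmb8 window is chr17:34197945-34198244 (plus strand) and the Psmb9 window chr17:34187281-34187580 (minus strand).
Psmb8: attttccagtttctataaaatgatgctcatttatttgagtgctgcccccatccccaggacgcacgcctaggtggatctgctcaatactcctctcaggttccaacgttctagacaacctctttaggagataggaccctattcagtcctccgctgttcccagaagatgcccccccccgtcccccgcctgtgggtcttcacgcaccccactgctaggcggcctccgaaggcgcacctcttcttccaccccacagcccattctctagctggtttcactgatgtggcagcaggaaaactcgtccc
Psmb9: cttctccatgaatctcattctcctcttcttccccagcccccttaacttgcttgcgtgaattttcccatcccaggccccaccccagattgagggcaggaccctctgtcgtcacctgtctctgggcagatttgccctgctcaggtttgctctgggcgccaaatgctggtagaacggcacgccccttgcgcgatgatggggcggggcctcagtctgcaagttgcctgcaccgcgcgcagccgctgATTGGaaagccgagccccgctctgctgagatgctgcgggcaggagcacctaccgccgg

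Shorter stretches are shown for 3 genes that rose and whose windows held a motif of a stress or interferon pathway. Not shown are Psmb3, which also rose and held the interferon element, and Psmc6 and Psme4, which fell and held the antioxidant element. Capitals mark the antioxidant response element TGACNNNGC in Psmb5 (chr14:54618009-54618067, minus strand) and Psmb6 (chr11:70525323-70525381, plus strand), and the interferon stimulated response element in Psme1 (chr14:55578478-55578537, plus strand).
Psmb5: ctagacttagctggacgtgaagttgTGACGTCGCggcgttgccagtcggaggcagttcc
Psmb6: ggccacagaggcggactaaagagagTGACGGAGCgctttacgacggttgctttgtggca
Psme1: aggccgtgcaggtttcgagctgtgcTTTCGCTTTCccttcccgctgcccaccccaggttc

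Windows were found for 42 of the 50 genes, 46 windows in all, and each motif was searched on both strands. The antioxidant element was in 6 of these 46 windows (13.0%), against 12.4% of all 32851 windows. CCAAT was in 16 (34.8%), against 37.4% of all windows. The interferon element was in 5 (10.9%), against 3.44% of all windows, and lay in Psmb3, Psmd4, Psmd9, Psme1 and Psmg4. Among genes with a window, the antioxidant element was found in 2 of 15 that rose with acLDL, 2 of 3 that fell and 2 of 24 that did not pass, and the interferon element in 2, 0 and 3 of them. A match describes letters and does not show a bound site.

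All 50 genes were tested in a limma fit over the 19938 genes, with acLDL minus unloaded as the direction and a Benjamini-Hochberg adjusted p below 0.05 as the threshold. Of the 50, 19 rose, 4 fell and 27 did not pass. Over all genes tested, 12.9% rose and 10.5% fell (23.3% in either direction), against 38% and 8% of the proteasome genes. The all-gene shares here and below include dim genes. Of the 50 genes, 49 lay above the 95th percentile of olfactory receptor genes, a gauge of background. A fit limited to genes above it called 4481 genes, and 11627 of the genes above it had a known span. How much of the excess goes with signal level was not tested. The median log2 difference was 0.13 over the 50 genes and -0.0031 over all genes. The changes were small, and 2 of the 50 genes changed by at least 1.5-fold, against 405 of the 19938 genes of the whole table. The 2 were Psmb10 (1.59-fold higher) and Psmd3 (1.53-fold higher). The groups of arrays lay apart with acLDL higher in 21 of the 50 (14.0% of all genes) and with acLDL lower in 5 (11.6% of all genes), where 25.6% of all genes lay apart in either direction.

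**Figure D1:**
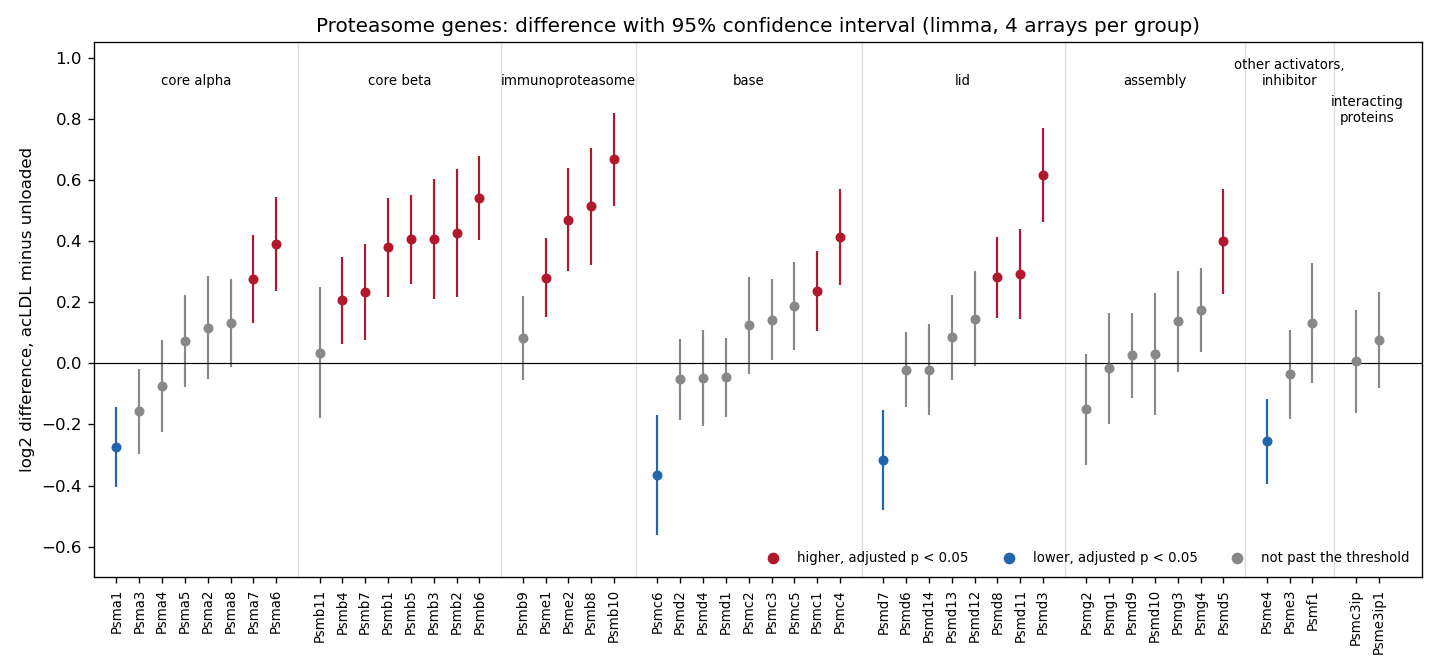
Log2 difference, acLDL minus unloaded, for each of the 50 proteasome genes, grouped by role and ordered by size, with 95% confidence intervals from limma (4 arrays per group). Points past the adjusted threshold are red when higher and blue when lower. Among core beta genes 7 of 8 are red, among core alpha genes 2 of 8 are red and 1 is blue.

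RNA of the core beta genes rose in all but 1 of them. Of 8 core beta genes 7 rose (87.5%, against 12.9% of all genes) and 0 fell (against 10.5%), with a median log2 difference of 0.39. The exception, Psmb11, is a beta subunit known from the thymic cortex, and it lay at 6.35 and 6.38 (log2, means of 4 arrays) in unloaded and acLDL cells, close to 6.12. That value is the 95th percentile of olfactory receptor genes, used here as a gauge of background. Relative to each gene's unloaded mean, the median deviation of the 8 genes was 0.15, -0.07, -0.09 and 0.04 in unloaded arrays 1 to 4 and 0.33, 0.38, 0.40 and 0.34 in acLDL arrays 1 to 4. Every acLDL array thus lay above every unloaded array in this median.

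Psmb6, the subunit with caspase-like activity, rose the furthest of the core beta genes. It stood at 10.44, 10.23, 10.29 and 10.39 in unloaded arrays 1 to 4 and at 10.87, 10.86, 10.92 and 10.85 in acLDL arrays 1 to 4 (log2 levels). The acLDL arrays were closely grouped and lay above all unloaded arrays. The rise was 0.54 ± 0.06 (log2, SE; limma adjusted p = 5.12e-05), or 1.45-fold.

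Psmb5, which carries the chymotrypsin-like activity that proteasome inhibitor drugs block, stood at 8.96, 8.91, 8.74 and 8.98 in unloaded and 9.31, 9.28, 9.36 and 9.27 in acLDL arrays. The groups did not overlap, and the rise was 0.41 ± 0.07 (log2, SE; limma adjusted p = 0.000657). Psmb7, with trypsin-like activity, stood at 10.22, 9.98, 9.93 and 10.18 in unloaded and 10.31, 10.31, 10.30 and 10.32 in acLDL arrays. The acLDL arrays lay above the unloaded ones, 1 and 4 of which were only slightly lower. Its rise of 0.23 ± 0.07 (log2, SE; limma adjusted p = 0.0343) did not pass without unloaded arrays 2 and 3 (0.11, adjusted p = 0.251), nor without unloaded array 2 or 3 alone or any 1 acLDL array (adjusted p 0.0643 to 0.0937).

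The genes of beta subunits without catalytic activity rose as well. Psmb2 stood at 8.17, 7.71, 7.82 and 8.10 in unloaded and 8.52, 8.33, 8.37 and 8.28 in acLDL arrays, a rise of 0.43 ± 0.10 (log2, SE; limma adjusted p = 0.00606). Psmb3 stood at 9.62, 9.38, 9.13 and 9.42 in unloaded and 9.71, 9.84, 9.90 and 9.74 in acLDL arrays, a rise of 0.41 ± 0.09 (log2, SE; limma adjusted p = 0.00545). In both genes the unloaded arrays were spread more widely than the acLDL arrays and lay below them. A second probe set of Psmb3 gave 0.27. Psmb1 and Psmb4 rose by 0.38 and 0.21 on the log2 scale. The call of Psmb4 (adjusted p = 0.0372) was lost after removal of a trend with gene span (adjusted p = 0.0948), without unloaded arrays 2 and 3 (0.145), and on leaving out any single array other than unloaded array 1 (0.0601 to 0.103).

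The core alpha genes showed no such uniform rise. Of 8 core alpha genes 2 rose (25%, against 12.9% of all genes), 1 fell (12.5%, against 10.5%) and 5 did not pass. The median log2 difference was 0.09. Whether the alpha and beta genes differ as groups was not tested. Psma8, an alpha subunit known from testis, was the only one of the 50 genes whose mean did not exceed the olfactory 95th percentile. The mean of Psmc3ip exceeded it only narrowly (6.120 against 6.119).

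Psma6 stood at 9.61, 9.34, 9.38 and 9.35 in unloaded and 9.76, 9.89, 9.78 and 9.81 in acLDL arrays. Unloaded array 1 was the highest of its group but below all acLDL arrays, and the rise was 0.39 ± 0.07 (log2, SE; limma adjusted p = 0.00140). Psma7 stood at 8.85, 8.73, 8.75 and 8.87 in unloaded and 9.18, 9.12, 8.97 and 9.03 in acLDL arrays, a rise of 0.28 ± 0.07 (log2, SE; limma adjusted p = 0.00857) that missed the threshold without unloaded arrays 2 and 3 (adjusted p = 0.0588). Psma1 went the other way. It stood at 10.34, 10.18, 10.20 and 10.25 in unloaded and 9.99, 9.97, 9.93 and 9.99 in acLDL arrays, and fell by 0.27 ± 0.06 (log2, SE; limma adjusted p = 0.00500). All acLDL arrays of Psma1 lay below all unloaded arrays. Psma2, Psma3, Psma4, Psma5 and Psma8 had differences from -0.16 to 0.13 that did not pass. The 3 probe sets of Psma3 gave -0.11, -0.19 and -0.16, and the gene passed as lower in 4 of the 20 alternative settings.

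Of the 5 immunoproteasome genes 4 rose (80%, against 12.9% of all genes) and 0 fell (against 10.5%), with a median log2 difference of 0.47. The gene that did not pass was Psmb9. The median deviation of the 5 from their unloaded means was 0.04, -0.03, 0.01 and 0.03 in unloaded arrays and 0.24, 0.47, 0.55 and 0.37 in acLDL arrays 1 to 4. The count of 4 was the same in all 20 alternative settings.

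Psmb10, which takes the place of Psmb7, had the largest difference of the 50 genes. It stood at 8.25, 8.08, 8.26 and 8.26 in unloaded and 9.0, 8.93, 8.81 and 8.78 in acLDL arrays (log2 levels). The rise of 0.67 ± 0.07 (log2, SE; limma adjusted p = 2.23e-05) was 1.59-fold, and the gap between the groups was wider than the spread of either. Psmb8, which takes the place of Psmb5, stood at 8.01, 7.81, 7.59 and 7.93 in unloaded and 8.39, 8.42, 8.38 and 8.20 in acLDL arrays. Its groups did not overlap, and it rose by 0.51 ± 0.09 (log2, SE; limma adjusted p = 0.000896), or 1.43-fold.

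Psmb9, which takes the place of Psmb6, stood at 8.01, 8.06, 8.03 and 7.96 in unloaded and 8.20, 7.99, 8.10 and 8.11 in acLDL arrays. The groups overlapped, and the difference of 0.08 ± 0.06 (log2, SE; 95% interval -0.06 to 0.22; limma adjusted p = 0.400) did not pass. Tap1, a peptide transporter gene that shares most of the Psmb9 promoter window shown above, differed by 0.04 ± 0.07, and Tap2 by 0.08 ± 0.06 (log2, SE), and neither passed. Psmb8, between Tap1 and Tap2 in gene order, was the only one of these 4 neighbours past the threshold, but the difference between their responses was not tested.

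The activator pair Psme1 and Psme2 rose. Psme2 stood at 8.82, 8.88, 8.84 and 8.78 in unloaded and 9.07, 9.30, 9.40 and 9.43 in acLDL arrays, a rise of 0.47 ± 0.08 (log2, SE; limma adjusted p = 0.000676). Psme1 stood at 9.58, 9.47, 9.47 and 9.54 in unloaded and 9.72, 9.81, 9.79 and 9.85 in acLDL arrays, a rise of 0.28 ± 0.06 (log2, SE; limma adjusted p = 0.00422). In both genes acLDL array 1 was the lowest of its group and still above the unloaded arrays. A further probe set, annotated to both Psme2 and its copy Psme2b and therefore not read as either, differed by -0.05 ± 0.10 (log2, SE).

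**Figure D2:**
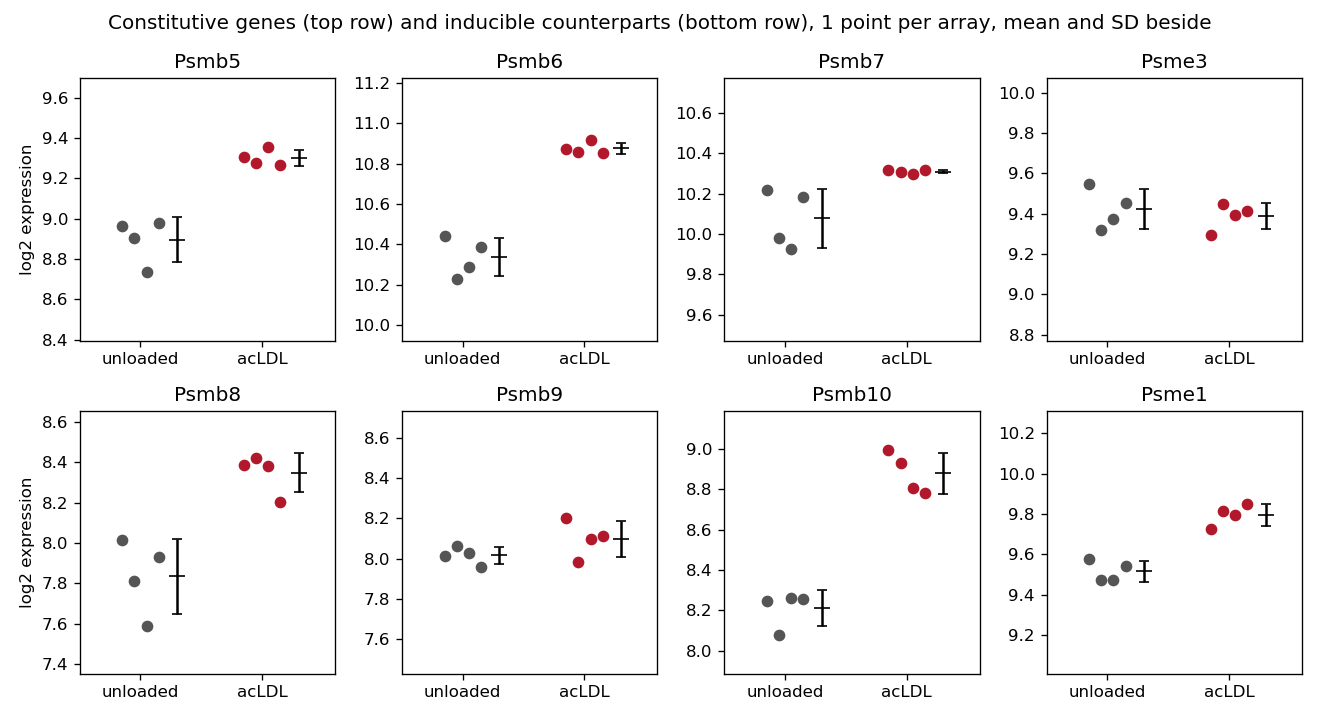
Log2 expression in each of the 4 unloaded (grey) and 4 acLDL (red) arrays, with mean and SD beside the points. The top row holds the constitutive genes Psmb5, Psmb6 and Psmb7 and the activator gene Psme3. The bottom row holds the inducible gene of the same position and the alternative activator gene Psme1. Every panel spans 1.3 log2 units, so the sizes of differences can be compared but levels cannot. The groups overlap in Psmb9 and Psme3 and lie apart in the other 6 genes.

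Whether the genes of a pair responded differently was tested within arrays for 4 pairs. The test was a two-sided exact permutation test over arrays, with Benjamini-Hochberg adjustment over the pairs. Psmb8, Psmb9 and Psmb10 were each set against the constitutive gene whose place they take. Psme1 was set against Psme3, an alternative activator. Psmb10 rose by 0.44 more than Psmb7 (log2; exact p = 0.0286, the smallest possible; adjusted p = 0.0381). Psmb9 showed the opposite, with a difference that was smaller than that of Psmb6 by 0.46 on the log2 scale, that is, a difference of responses of -0.46 (exact p = 0.0286; adjusted p = 0.0381). Psme1 rose by 0.32 more than Psme3 changed (exact p = 0.0286; adjusted p = 0.0381). Psmb8 and Psmb5 differed by 0.11 in their responses, with SDs of the within-array values of 0.09 in each group, and the groups overlapped (exact p = 0.143; adjusted p = 0.143). With 3 acLDL arrays in place of 4, the adjusted p of the first 3 pairs was 0.0571 to 0.0762, while their groups still lay apart.

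The other activators did not rise. Psme3, whose product activates proteasomes in the nucleus, stood at 9.55, 9.32, 9.37 and 9.45 in unloaded and 9.30, 9.45, 9.40 and 9.41 in acLDL arrays, overlapping groups with a difference of -0.04 ± 0.07, SE on the log2 scale (limma adjusted p = 0.749). Psme4, a large nuclear activator, stood at 9.59, 9.44, 9.47 and 9.41 in unloaded and 9.18, 9.26, 9.15 and 9.29 in acLDL arrays. It fell by 0.26 ± 0.06 (log2, SE; limma adjusted p = 0.0107), and all acLDL arrays lay below the unloaded ones. Psmf1, first described as a proteasome inhibitor, stood at 8.08, 7.75, 7.75 and 8.11 in unloaded and 8.14, 8.12, 8.03 and 7.92 in acLDL arrays. Its unloaded arrays split into a high and a low pair, and the difference of 0.13 ± 0.09 (log2, SE; limma adjusted p = 0.344) missed the threshold. Without the high pair, unloaded arrays 1 and 4, it was 0.30 and passed (adjusted p = 0.0172).

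Of 9 genes of the base of the regulatory particle 2 rose, 1 fell and 6 did not pass, with a median log2 difference of 0.12. The share called was 33.3%, against 23.3% of all genes, and all 3 changes were in the 6 ATPase genes. The base genes lay at levels of 8.81 to 11.22, and the share called among genes of similar level was not computed. Psmc4 stood at 9.07, 8.85, 8.85 and 9.06 in unloaded and 9.47, 9.40, 9.29 and 9.33 in acLDL arrays, a rise of 0.41 ± 0.07 (log2, SE; limma adjusted p = 0.00102). Psmc1 stood at 9.69, 9.72, 9.81 and 9.75 in unloaded and 9.89, 10.03, 9.99 and 10.00 in acLDL arrays, a rise of 0.24 ± 0.06 (log2, SE; limma adjusted p = 0.0126). The groups lay apart in both ATPase genes. A second probe set of Psmc1 gave 0.08, and the mean of both did not pass (0.16, adjusted p = 0.0789), nor did Psmc1 without unloaded arrays 1 and 4 (adjusted p = 0.0507).

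Psmc6, another ATPase gene, stood at 9.88, 9.54, 9.55 and 9.81 in unloaded and 9.17, 9.49, 9.32 and 9.35 in acLDL arrays. It fell by 0.36 ± 0.09 (log2, SE; limma adjusted p = 0.0103), the largest fall of the 50 genes. Unloaded arrays 1 and 4 were the high ones, and without them the fall was 0.22 and did not pass (adjusted p = 0.0995). The scaffold genes Psmd1 and Psmd2, the ubiquitin receptor gene Psmd4 and the ATPase genes Psmc2, Psmc3 and Psmc5 differed by -0.05 to 0.19 and did not pass. Psmc5 (0.19, adjusted p = 0.0560) passed in 7 of the 20 alternative settings, and Psmc2 passed without unloaded arrays 1 and 4 (adjusted p = 0.0441).

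Among genes of the regulatory particle the strongest single rise was in a lid gene. Of 8 lid genes 3 rose (37.5%, against 12.9% of all genes), 1 fell (12.5%, against 10.5%) and 4 did not pass. The median log2 difference was 0.12. Psmd3, a scaffold subunit, stood at 8.29, 8.05, 8.08 and 8.25 in unloaded and 8.85, 8.83, 8.70 and 8.75 in acLDL arrays. Its rise of 0.62 ± 0.07 (log2, SE; limma adjusted p = 4.38e-05) was 1.53-fold, with no overlap of the groups. Psmd11, also a scaffold subunit, stood at 9.68, 9.44, 9.43 and 9.52 in unloaded and 9.80, 9.77, 9.87 and 9.79 in acLDL arrays, a rise of 0.29 ± 0.07 (log2, SE; limma adjusted p = 0.00691). It did not pass without unloaded arrays 2 and 3 (0.21, adjusted p = 0.0568). Psmd8 rose by 0.28.

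Psmd7, the partner of the deubiquitinase Psmd14, stood at 9.79, 9.51, 9.48 and 9.65 in unloaded and 9.22, 9.33, 9.25 and 9.36 in acLDL arrays. All acLDL arrays were lower, and the fall was 0.32 ± 0.08 (log2, SE; limma adjusted p = 0.00813), but 0.20 (adjusted p = 0.0563) without unloaded arrays 1 and 4. Psmd14 itself differed by -0.02, and with Psmd6, Psmd12 and Psmd13 made up the lid genes that did not pass (-0.02 to 0.15).

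Among 7 assembly factors 1 rose, 0 fell and 6 did not pass, with a median log2 difference of 0.03. Psmd5, a chaperone of base assembly, stood at 8.45, 8.16, 8.09 and 8.18 in unloaded and 8.65, 8.69, 8.53 and 8.59 in acLDL arrays. It rose by 0.40 ± 0.08 (log2, SE; limma adjusted p = 0.00253), with the groups apart. The other base chaperones, Psmd9 and Psmd10, differed by 0.03 each, and the chaperones of the core, Psmg1 to Psmg4, by -0.15 to 0.17, and none of these 6 passed. Psmg4 (0.17, adjusted p = 0.0678) passed in 3 of the 20 alternative settings. The interacting proteins Psmc3ip, known from meiotic recombination, and Psme3ip1 differed by 0.01 and 0.08 and did not pass.

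**Figure D3:**
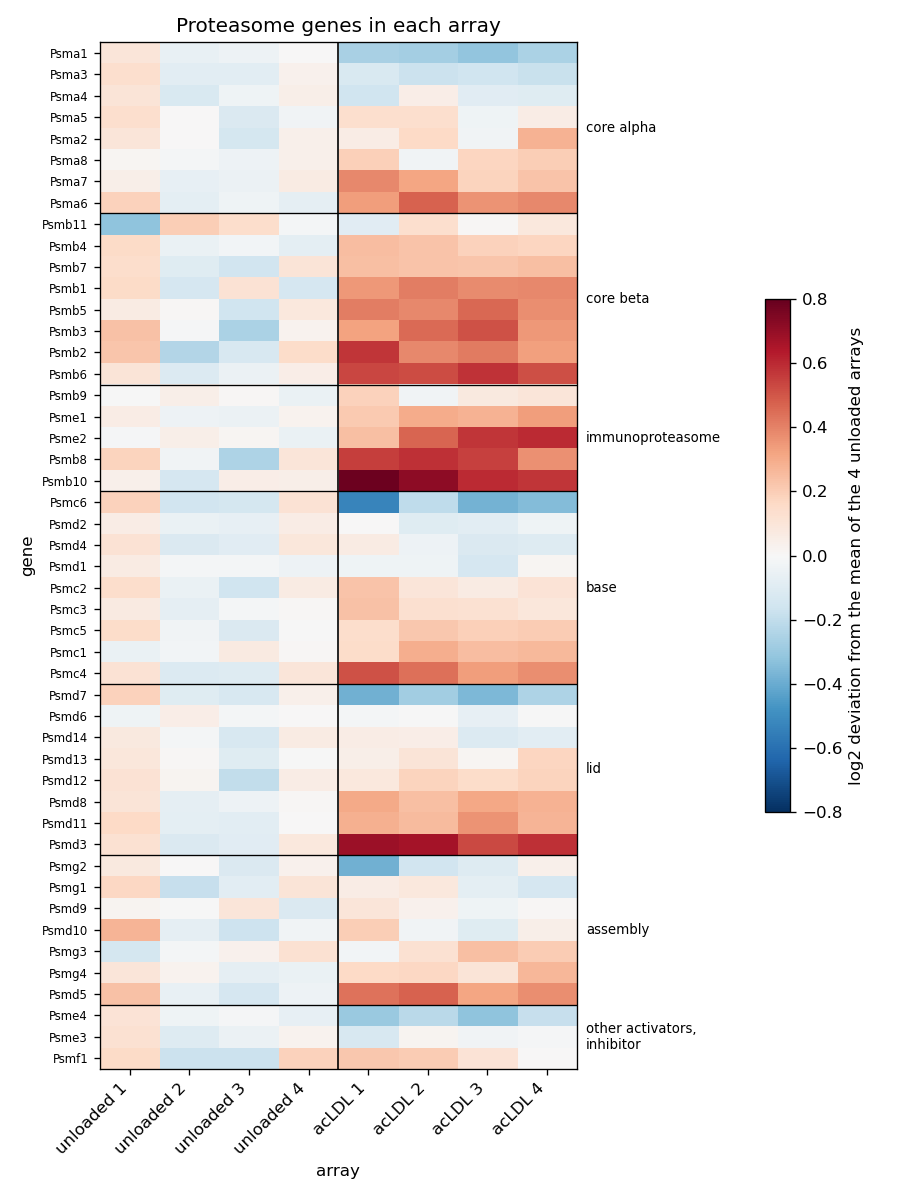
Deviation of each of the 48 subunit, activator and assembly genes from its mean over the 4 unloaded arrays (log2), 1 column per array and 1 row per gene, grouped by role. The red block in the acLDL columns covers most core beta and immunoproteasome rows, and the column of unloaded array 1 is pale red in most rows.

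Within the unloaded group many proteasome genes were highest or lowest in the same array. Unloaded array 1 had the highest level of its group in 36 of the 48 subunit, activator and assembly genes, and unloaded array 3 the lowest in 21. The same counts were not made for all genes or for genes of similar level. Whether the pattern is particular to proteasome genes was therefore not tested. The median deviation of the 48 genes was 0.11, -0.05, -0.08 and 0.03 in unloaded arrays 1 to 4, against 0.17, 0.15, 0.11 and 0.18 in acLDL arrays 1 to 4. The median of all genes was 6.44, 6.52, 6.54 and 6.45 in unloaded arrays 1 to 4. Signal also followed gene span. Over 11627 genes, Spearman correlations between span and the deviation on an array came to 0.23, -0.02, -0.05 and 0.21 for unloaded and -0.12, -0.05, -0.20 and -0.01 for acLDL arrays. Across the 48 proteasome genes, which share the same arrays, the log2 difference and span had a Spearman correlation of -0.27, a description only. After removal of the span trend 22 of the 23 called genes were still called in the same direction, and Psmb4 was not.

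Genes that work with the proteasome moved in both directions. In a list of ubiquitin activation and substrate delivery genes 8 genes were measured, with a median log2 difference of 0.12. Of these 3 rose (37.5%, against 12.9% of all genes), 2 fell (25%, against 10.5%) and 3 missed the threshold. Ubqln4 and Rad23b, shuttles that bring ubiquitinated proteins to the proteasome, rose by 0.34 and 0.30, the latter not passing without unloaded arrays 2 and 3 (adjusted p = 0.0687). Ufd1, a cofactor of the Vcp segregase, fell by 0.51 ± 0.06 (log2, SE; limma adjusted p = 5.01e-05), while Vcp differed by 0.09 and did not pass. Uba6, a ubiquitin-activating enzyme, fell by 0.23, a call that was lost in 8 of the 20 alternative settings (adjusted p up to 0.254).

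In a list of proteasome regulators and bound factors 15 genes were measured, with a median log2 difference of -0.02. Of these 1 rose (6.67%, against 12.9% of all genes), 4 fell (26.7%, against 10.5%) and 10 missed the threshold. The member that rose was Pomp, the chaperone that helps the beta rings of the core assemble, by 0.75 ± 0.08 (log2, SE; limma adjusted p = 1.33e-05), or 1.69-fold, from 9.96 ± 0.13 to 10.71 ± 0.09 (log2, SD, n = 4). Zfand2a and Zfand5, zinc finger proteins that bind the proteasome, fell by 0.63 and 0.39. Ngly1, the deglycosylase that processes the transcription factor Nfe2l1, fell by 0.36. Nfe2l1, which drives proteasome genes when proteasomes fail, missed the threshold at -0.11 ± 0.06 (log2, SE; limma adjusted p = 0.193), as did its relative Nfe2l2 at 0.19 ± 0.06 (adjusted p = 0.0504).

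In a list of MHC class I peptide loading genes and interferon regulators 16 genes were measured, with a median log2 difference of -0.0020. Of these 2 rose (12.5%, against 12.9% of all genes), 2 fell (12.5%, against 10.5%) and 12 missed the threshold. Both shares were thus near those of all genes. The interferon regulatory factor genes Irf2 and Irf8 rose by 0.38 and 0.31, the latter not passing without unloaded arrays 2 and 3 (adjusted p = 0.0550). B2m, the light chain of class I molecules, fell by 0.29, and Erap1, a peptide-trimming enzyme, by 0.22, a call lost in 7 of the 20 alternative settings (adjusted p up to 0.134). Irf1 and the interferon gamma receptor genes Ifngr1 and Ifngr2 differed by -0.02 to 0.07 and did not pass.

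**Figure D4:**
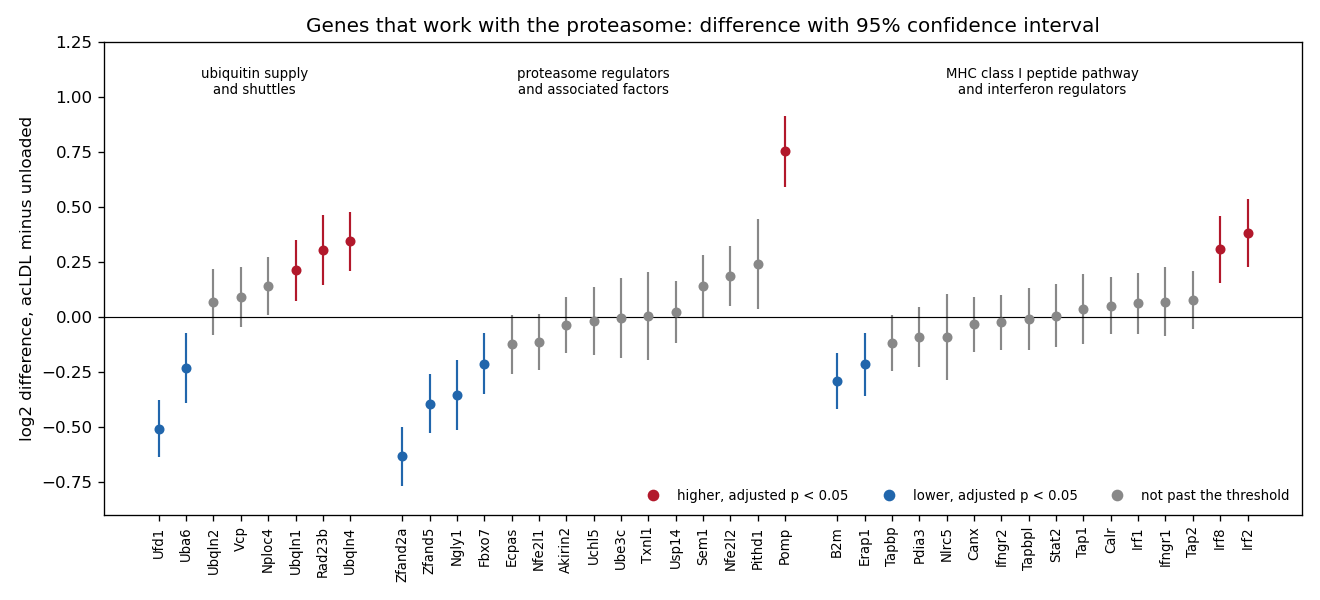
Log2 difference, acLDL minus unloaded, with 95% confidence intervals for the 39 measured genes of the lists of ubiquitin supply, proteasome regulation and MHC class I peptide loading. Pomp is the highest point at 0.75 and Zfand2a the lowest at -0.63, and most genes of peptide loading lie near 0.

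The identity of the cells bears on these values, since arrays of bulk RNA cannot tell fewer cells of a type from less RNA per cell. All 6 macrophage markers lay above the olfactory 95th percentile, with a log2 summed level of 14.19 to 14.28 in unloaded and 14.29 to 14.34 in acLDL arrays. Of these, 3 rose by 0.59 to 0.71, Adgre1, Itgam and Fcgr1, while Cd68, Csf1r and Lyz2 differed by -0.09 to 0.06 and did not pass. Among 7 fibroblast and mesothelial markers 5 lay above that percentile, and 1, Col1a2, fell. Their summed level was 11.56 to 11.86 in unloaded and 11.44 to 11.57 in acLDL arrays. Markers of T cells, B cells, NK cells, dendritic cells and mast cells numbered 22, of which 4 lay above that level and 0 passed in limma (2 at an unadjusted p under 0.05). Of 6 neutrophil markers 1 lay above that level, and the ones that fell, Camp and Ly6g, lay below it in both groups. Of 4 eosinophil markers 1 lay above it, Siglecf, which fell. The part of cell makeup in the proteasome differences was not tested.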

How the data were processed

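The deposited values are log2 expression values per probe set, which the authors made with RMA (robust multi-array average), a method named in the submitters' processing notes. The sources used here name no version and no settings. RMA matches the distributions of arrays, so a change shared by all genes is hidden or reduced, and differences of dim genes are compressed. The deposited values were still not fully matched, with medians of all genes of 6.44 to 6.54 over the arrays. Repeated quantile normalisation raised the genes called in the whole table from 4650 to 5327. The table held 35557 probe sets, 21789 with 1 gene symbol, which gave 19938 genes. Each description gave its sample a group and a replicate number.

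The functions lmFit and eBayes of limma 3.58.1 (R 4.3.3) gave two-sided tests with no block. P-values of all 19938 genes were adjusted together by Benjamini-Hochberg, and 0.05 was the threshold. Standard errors and 95% intervals are moderated. The step was tested on simulated arrays with changes of 1.5-fold and larger. Smaller changes, as in most of the proteasome genes called here, were not covered by it. Within-array differences of 4 gene pairs were compared by exact permutation of arrays, two-sided. The members, lists and pairs, the pairs of unloaded arrays left out and the rule for genes shown by array were chosen with earlier results of these data known. That rule took the catalytic subunits, the activators and Psmf1, and the 3 largest changes past the threshold in each of the roles core alpha, core beta, base, lid and assembly. Of the other lists it took up to 4. Further genes were named after their values were seen. Lists are described by counts and medians, with no set test. The number of arrays limits precision. Motifs were searched in RefSeq promoter windows. Plots used Python 3.11.15 and matplotlib 3.10.9.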

Additional observations from a re-analysis of the deposited data

Results flagged for a closer look

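3 sets of values hold an array that stands apart from the other 3 of its group by Dixon's criterion, among 54 groups of 4 arrays examined; chance marks about 1 in 20 groups. Psmb8 was lower in acLDL array 4 (8.20 log2) than in the other acLDL arrays, with a gap of 0.837 of the group's range, and that array still lay above all unloaded arrays. Psmb10 was lower in unloaded array 2 (8.08), with a gap of 0.925 of the range, on the side away from the acLDL arrays. Psma6 was higher in unloaded array 1 (9.61), with a gap of 0.847 of the range, on the side towards the acLDL arrays.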

How the results depend on the processing

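Of the 23 proteasome genes called, 16 kept call and direction in all 20 alternative settings. No call changed sign, and Psmc5, Psma3, Psmg4, Psmc2 and Psmf1 passed in 1 to 7 settings each. The count of rises ran from 15 to 21 and that of falls from 2 to 5, and without unloaded arrays 1 and 4 it was 2 falls in place of 4, Psmc6 and Psmd7 being lost. The core beta count ran from 5 to 7 and the immunoproteasome count was 4 throughout. The alternatives were a fit with replicate block, every annotated probe set tested, averaged probe sets per gene, only genes above the olfactory 95th percentile, repeated quantile normalisation, median centring, cyclic loess, removal of the span trend, a trended robust prior, array weights, each array left out, and either pair of unloaded arrays left out. With the replicate block all 23 calls were kept, and 4860 genes of the whole table changed in place of 4650. Arrays of equal replicate number had correlations of their deviations of 0.11, -0.16, 0.30 and 0.14, against 0.17, 0.31, -0.07 and 0.16 between each unloaded array and its best acLDL array of another number, so of the unloaded arrays replicate 3 alone correlated best with its own number. As replicate 2 fell below 0.1, the numbers were not taken as pairs. Leaving out each array in turn, the difference in response was -0.49 to -0.41 for Psmb9 against Psmb6, 0.40 to 0.50 for Psmb10 against Psmb7, and 0.30 to 0.34 for Psme1 against Psme3. These pairs passed without any 1 unloaded array and did not pass without any 1 acLDL array (adjusted p 0.0571 to 0.0762). In each of these settings their within-array differences still lay apart between the groups. The adjustment runs over the 4 pairs together, so the adjusted p of 1 pair also depends on the others. A lost call therefore does not by itself show a smaller difference. With 2 unloaded arrays the exact test cannot pass, and those settings give values only.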
